A study of Mus musculus with 12 samples.

Results

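The unfolded protein and stress response was described over 10 genes in epididymal white adipose tissue (eWAT) of C57BL/6J mice. They were the rows of the gene expression table whose mouse Ensembl identifier maps to Hspa5, Hsp90b1, Xbp1, Atf4, Atf3, Atf6, Ddit3, Trib3, Ern1 or Eif2ak3. All 10 members were found among the 23474 genes of the table, and all 10 passed the filter on low values in every comparison. The series held 12 RNA-seq libraries, 3 in each of 4 groups of male mice that were 17 weeks old and had been on their diet for 12 weeks. The ND group received a normal diet and the HFD group a high-fat diet. The GT group received the high-fat diet with an ethanol extract of green tea at 0.25% of its weight, and the TJ group received it with Taeeumjowuitang (TJ), a herbal formula, at 3%. Each library came from whole eWAT of a single mouse, so the diet groups differ in what the whole depot contained and not in one sorted cell type.

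The endoplasmic reticulum (ER) folds secreted and membrane proteins. When unfolded proteins accumulate there, the sensors IRE1 (encoded by Ern1), PERK (Eif2ak3) and ATF6 (Atf6) start the unfolded protein response. IRE1 splices the mRNA of Xbp1, ATF6 is cut to release a transcription factor, and PERK phosphorylates eIF2α, which slows translation in general but raises translation of ATF4. Spliced XBP1 and cut ATF6 raise ER chaperones such as Hspa5 (BiP) and Hsp90b1 (GRP94), whereas ATF4 raises genes of amino acid metabolism together with Ddit3 (CHOP), Trib3 and Atf3. Fat cells secrete adipokines and lipases through the ER, and this response has been studied widely in obese adipose tissue. Splicing, cleavage and phosphorylation do not show in the expression level of a gene, so the values below describe mRNA amounts and not the activity of the 3 sensors.

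The sequences that link the chaperones to ATF6 and XBP1 are shown first, because Hspa5 and Hsp90b1, whose values open the results, are textbook targets of both factors. The ER stress response element (ERSE) was searched as CCAAT and CCACG with 9 bases of any kind between them, on both strands of the 250 bases before each gene's RefSeq start (GRCm38.p6). RefSeq promoters were matched for 9 of the 10 members. The entry missing was that of Atf6. The element was found in 0.113% of all 32817 promoters and in 2 of these 9, those of Hspa5 and Hsp90b1. The 185 bases before the Hsp90b1 gene, at chr10:86705510-86705694 on the minus strand, held 1 element on each strand, and capitals mark both.

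Hsp90b1: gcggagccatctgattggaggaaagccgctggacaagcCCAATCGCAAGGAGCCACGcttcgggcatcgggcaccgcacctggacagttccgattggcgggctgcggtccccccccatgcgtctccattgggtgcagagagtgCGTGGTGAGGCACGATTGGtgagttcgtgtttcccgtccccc

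The single elements of the other genes are given below 5′ to 3′ on the strand that reads CCAAT first, with the 2 fixed parts in capitals. The Hspa5 element lies 65 to 47 bases before the RefSeq start, at chr2:34772025-34772043 on the plus strand, inside the first exon of a longer GENCODE transcript. The others are from genes listed as partners of the members, namely the lectin chaperones Calr and Canx, the oxidoreductase Pdia6, the ER protein Creld2, the PERK inhibitor Dnajc3, and Derl3 and Syvn1 of ER-associated degradation.

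Hspa5: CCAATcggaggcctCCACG
Calr: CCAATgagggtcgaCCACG
Canx: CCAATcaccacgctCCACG
Pdia6: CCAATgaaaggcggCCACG
Creld2: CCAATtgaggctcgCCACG
Dnajc3: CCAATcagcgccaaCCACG
Derl3: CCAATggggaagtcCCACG
Syvn1: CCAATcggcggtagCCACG

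None of the 9 member promoters held TGACGTGG (UPRE), TGACGTCA (CRE) or TGATGNAAT (CARE, the C/EBP-ATF element through which ATF4 acts), which were found in 0.564%, 1.55% and 0.817% of all promoters. The CARE stood in the promoters of 3 of 21 ATF4 targets with a RefSeq promoter, namely Fgf21, Nupr1 and Aars. A match of letters is no measurement of binding, and the absence of one covers this window only.

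A pair of facts about the libraries touches every result. The ND replicate 1 library stood apart from the other 11. Its 9 epididymis markers summed to 17379 FPKM (fragments per kilobase of transcript, scaled to the depth of the library) and its 10 germ cell markers to 99214 FPKM, against 0.470 to 1275 and 0.685 to 3028 FPKM in the other 11, and its 10 adipocyte markers summed to 4661 FPKM against 20240 to 62800 FPKM. Results for ND are therefore given with and without it. Adipocyte markers were present in all 12 libraries, the germ cell marker Gapdhs and the B cell marker Ms4a1 were listed at 0 in all of them, and the depth was about 9.77M fragments in ND replicate 1 and 14.1M to 19.5M in the others. The second fact is that macrophage markers moved with the diets. The sum of the 12 macrophage markers was 197 to 750 FPKM in ND, 3873 to 5505 FPKM in HFD, 1579 to 3577 FPKM in GT and 1115 to 2781 FPKM in TJ, while the adipocyte sum was 20240 to 21884 FPKM in HFD, 26859 to 32098 FPKM in GT and 32428 to 62800 FPKM in TJ. Other markers moved too. Between HFD and TJ the sum of 5 stromal markers was 1186 to 1252 FPKM against 839 to 866 FPKM, that of the plasma cell markers 54.1 to 70.9 against 21.3 to 42.5 FPKM, and that of 5 endothelial markers 192 to 221 against 227 to 373 FPKM, with no overlap in any of the 3. The germ cell sum was 29.5 to 2081 FPKM in HFD against 0.685 to 9.31 FPKM in TJ. GT lay below HFD in the stromal sum, at 875 to 1003 FPKM, and in the B cell sum, at 3.36 to 6.31 against 7.28 to 7.80 FPKM. In the stromal sum HFD lay above ND, which was 49.5 to 1172 FPKM. HFD lay above ND in the plasma cell sum, which was 15.3 to 16.7 FPKM in ND, and below it in the mesothelial sum, at 9.17 to 11.9 against 26.7 to 71.9 FPKM. The part of these markers in the differences below was not tested. In these whole-tissue libraries, fewer cells of a type and less of an RNA per cell cannot be told apart.

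**Figure D1:**
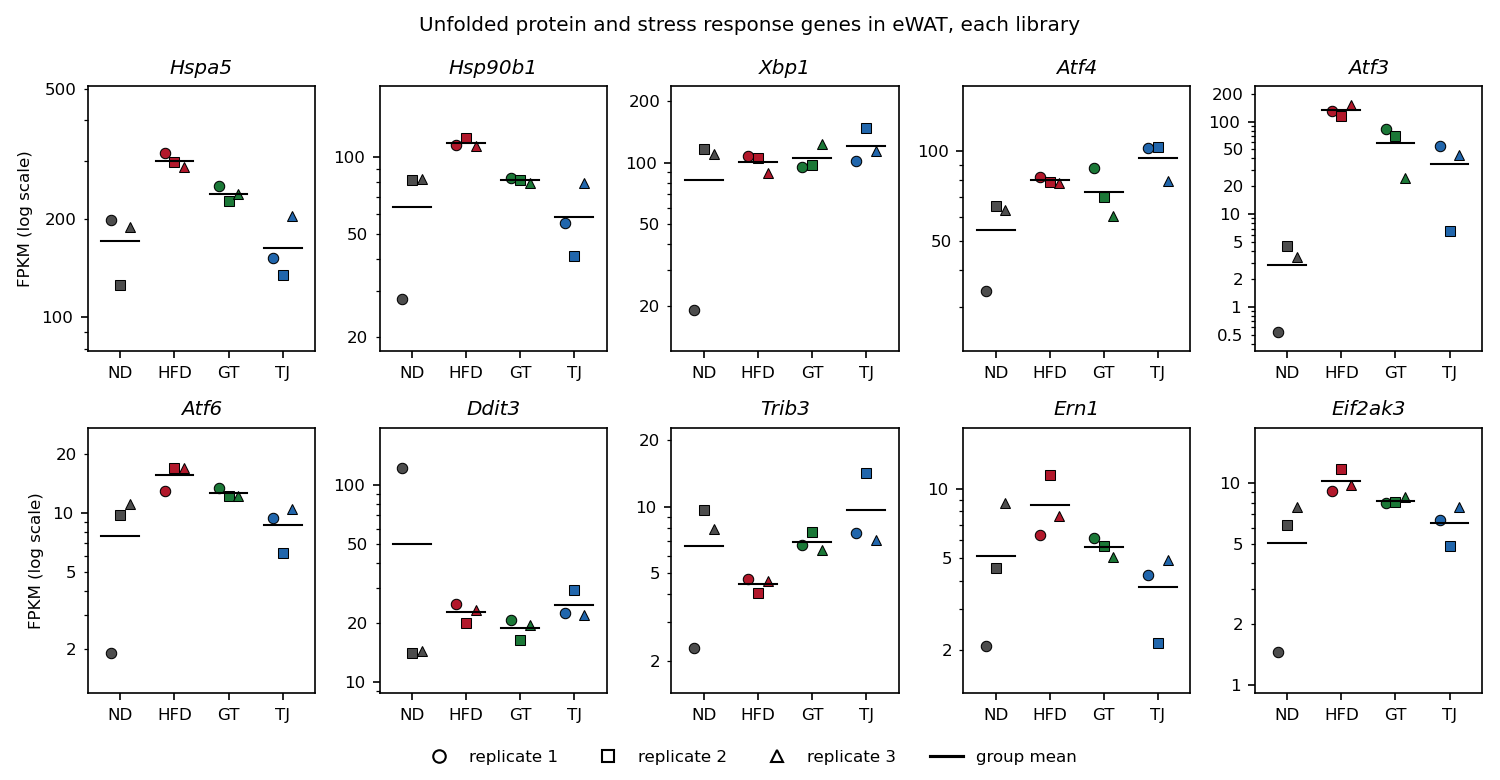
FPKM (log scale) of the 10 members in each library by group, with the shape of a point for the replicate number and a bar for the group mean of 3 libraries. The 3 HFD libraries lie above the GT and TJ libraries for Hspa5, Hsp90b1, Atf3, Ern1 and Eif2ak3 and below them for Trib3, and ND replicate 1 lies far from the other ND libraries for Ddit3 (121 against 14.0 and 14.3 FPKM) and for most other members.

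Hspa5, the central ER chaperone that also holds the 3 sensors inactive, had the highest mean level of the members over the 12 libraries. In TJ replicate 2 Hspa5 (135 FPKM) was below Xbp1 (148 FPKM). The level of Hspa5 was 199, 126 and 189 FPKM in ND, 319, 298 and 288 FPKM in HFD, 252, 227 and 238 FPKM in GT and 151, 135 and 203 FPKM in TJ. In order of the means the groups ran HFD, GT, ND, TJ, and only the neighbours ND and TJ overlapped, which change places without ND replicate 1. The HFD mean was 302 ± 15.5 FPKM (SD, n = 3) and the TJ mean 163 ± 35.7 FPKM, a difference of −0.90 ± 0.18 (SE) on the log2(FPKM + 1) scale (limma, adjusted p = 0.0276). HFD against ND gave 0.84 ± 0.32 (limma, adjusted p = 0.390) with all 6 libraries and 0.96 ± 0.19 (limma, adjusted p = 0.0306) without ND replicate 1. GT against HFD gave −0.33 ± 0.09 (limma, adjusted p = 0.0778), with all 3 GT libraries below the 3 HFD libraries. A gene is said to have risen or fallen where the Benjamini-Hochberg adjusted p of limma over all genes tested was under 0.05 and the fold change at least 1.5, so Hspa5 fell with TJ and rose with HFD only once ND replicate 1 was left out.

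Hsp90b1, the ER member of the HSP90 family and a chaperone of integrins and Toll-like receptors, was highest in HFD and lowest in TJ by its means, with or without ND replicate 1. It stood at 28.0, 81.2 and 82.1 FPKM in ND, 112, 118 and 111 FPKM in HFD, 82.7, 81.4 and 79.4 FPKM in GT and 55.4, 41.0 and 79.2 FPKM in TJ. HFD lay above every other library, and the GT libraries were tightly grouped at 81.2 ± 1.66 FPKM (SD, n = 3) and overlapped with ND. The mean of ND was below that of GT with ND replicate 1 and slightly above it without. Hsp90b1 fell with TJ, by −0.99 ± 0.23 on the log2 scale (limma, adjusted p = 0.0349). The difference for GT against HFD was −0.48 ± 0.08 (limma, adjusted p = 0.0379), under the fold change of 1.5. HFD against ND gave 0.97 ± 0.48 (limma, adjusted p = 0.494), and without ND replicate 1 it gave 0.47 ± 0.10 (limma, adjusted p = 0.0358), also under that fold change. A noncoding gene on the same strand, Gm15344, overlaps Hsp90b1 and was listed at 0 in all 12 libraries.

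Of the 3 sensors, Atf6 was called with TJ and the other two, just above the threshold, were not. Atf6 was measured at 1.91, 9.79 and 11.0 FPKM in ND, 12.9, 17.0 and 16.9 FPKM in HFD, 13.3, 12.2 and 12.2 FPKM in GT and 9.43, 6.20 and 10.4 FPKM in TJ. All TJ libraries lay below all GT libraries, whereas GT and HFD overlapped. It fell with TJ, by −0.80 ± 0.21 (limma, adjusted p = 0.0418). This call was lost with no filter (limma, adjusted p = 0.0819), with all 12 libraries in the fit (0.416), with eBayes without the trend (0.05004), with median-of-ratios scaling, at −0.67 (limma, adjusted p = 0.0504), and when a trend of the fold changes with transcript length was removed, at −0.38 (limma, adjusted p = 0.0545). Across 12725 genes the fold change of TJ against HFD ran against transcript length (Spearman's rho = −0.331), and the transcripts of Atf6 (7246 nt), Ern1 (6946 nt) and Eif2ak3 (4513 nt) are longer than the median of 3288 nt.

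Ern1, which encodes the kinase and endoribonuclease IRE1, stood at 2.07, 4.54 and 8.68 FPKM in ND and 6.30, 11.5 and 7.66 FPKM in HFD. It was 6.16, 5.64 and 5.07 FPKM in GT and 4.24, 2.14 and 4.90 FPKM in TJ. The 3 TJ libraries were below all GT libraries and those below all HFD libraries, but the spread in HFD was wide at 8.49 ± 2.70 FPKM. TJ against HFD gave −1.01 ± 0.30 (limma, adjusted p = 0.0525) and GT against HFD gave −0.49 ± 0.20 (limma, adjusted p = 0.164). With the length trend removed the first of these was −0.61 (limma, adjusted p = 0.0620).

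Eif2ak3, the kinase PERK, stood at 1.46, 6.20 and 7.58 FPKM in ND and 9.13, 11.7 and 9.74 FPKM in HFD. It was 7.98, 8.03 and 8.55 FPKM in GT and 6.55, 4.91 and 7.61 FPKM in TJ. HFD, GT and TJ followed each other in that order with no overlap between neighbours. TJ against HFD gave −0.62 ± 0.18 (limma, adjusted p = 0.0508), which was called under a minimum of 5 FPKM on the mean (limma, adjusted p = 0.0496), and GT against HFD −0.28 ± 0.11 (limma, adjusted p = 0.156). Without ND replicate 1, HFD against ND gave 0.53 ± 0.17 for Atf6 (limma, adjusted p = 0.101), 0.34 ± 0.34 for Ern1 (limma, adjusted p = 0.556) and 0.50 ± 0.17 for Eif2ak3 (limma, adjusted p = 0.120), and with it these were 1.19 ± 0.60, 0.75 ± 0.50 and 1.06 ± 0.53.

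Xbp1, the transcription factor whose mRNA IRE1 splices, differed little between the diets. Its FPKM was 19.2, 117 and 109.7 in ND, 108, 105 and 89.1 in HFD, 95.5, 97.4 and 124 in GT and 102, 148 and 113 in TJ. Apart from ND replicate 1, the libraries ranged 1.66-fold, the least of the members. With all 12 libraries, all neighbours in the order of the means, TJ, GT, HFD, ND, overlapped. Without ND replicate 1 the ND mean was 113 FPKM, above the means of GT and HFD. Every HFD library then lay below the remaining ND libraries, at 108 FPKM or less against 109.7 FPKM or more. TJ against HFD gave 0.25 ± 0.18 (limma, adjusted p = 0.303). The sign of HFD against ND turned from 0.66 ± 0.72 with ND replicate 1 to −0.17 ± 0.13 without it, and neither was called. Spliced and unspliced Xbp1 share a gene row and were not measured apart.

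Atf4, the transcription factor of the integrated stress response, was likewise not called in any of the 4 comparisons. It stood at 33.9, 65.4 and 63.7 FPKM in ND and 82.1, 79.2 and 78.5 FPKM in HFD. It was 88.1, 70.0 and 60.4 FPKM in GT and 102, 104 and 79.7 FPKM in TJ. HFD lay above ND in all libraries and overlapped with both GT and TJ. TJ against HFD gave 0.24 ± 0.15 (limma, adjusted p = 0.243), and HFD against ND gave 0.61 ± 0.35 (limma, adjusted p = 0.494) with ND replicate 1 and 0.30 ± 0.10 (limma, adjusted p = 0.107) without it.

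Trib3, a pseudokinase that binds ATF4 and the kinase AKT, ran opposite to the chaperones. Its level was 2.27, 9.66 and 7.92 FPKM in ND, 4.69, 4.06 and 4.59 FPKM in HFD, 6.72, 7.66 and 6.38 FPKM in GT and 7.57, 14.2 and 7.06 FPKM in TJ. The 3 HFD libraries were below all GT and TJ libraries and below ND replicates 2 and 3. Trib3 rose with TJ, by 0.90 ± 0.25 (limma, adjusted p = 0.0467), a call lost with no filter (limma, adjusted p = 0.0979), all 12 libraries in the fit (0.294) or eBayes without the trend (0.0538). GT against HFD gave 0.54 ± 0.11 (limma, adjusted p = 0.0484), a fold of 1.45 that missed the threshold of 1.5. With median-of-ratios scaling that difference was 0.65 (limma, adjusted p = 0.0345) and passed it. HFD against ND gave −0.32 ± 0.51 (limma, adjusted p = 0.741), and without ND replicate 1 Trib3 fell with HFD, by −0.84 ± 0.17 (limma, adjusted p = 0.0300).

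Ddit3, the proapoptotic factor CHOP, was dominated by ND replicate 1. That library held 121 FPKM, against 14.0 and 14.3 FPKM in the other ND libraries. The remaining groups held 24.9, 19.95 and 23.1 FPKM in HFD, 20.6, 16.4 and 19.5 FPKM in GT and 22.4, 29.2 and 21.8 FPKM in TJ. HFD against ND turned from −0.37 ± 0.86 (limma, adjusted p = 0.822) to 0.64 ± 0.14 (limma, adjusted p = 0.0390) when ND replicate 1 was left out, so Ddit3 rose with HFD in those 5 libraries. TJ against HFD gave 0.10 ± 0.16 (limma, adjusted p = 0.650), and GT against HFD gave −0.26 ± 0.13 (limma, adjusted p = 0.226). Mars, on the opposite strand, overlaps Ddit3 and stood at 70.1 FPKM in ND replicate 1 and 17.2 to 25.5 FPKM elsewhere. The library kit does not mark strand, so reads shared by both genes cannot be told apart.

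Atf3, an early transcriptional regulator that cells raise under many stresses and that restrains inflammatory genes in macrophages, had the widest range by far. It stood at 0.529, 4.55 and 3.47 FPKM in ND. It stood at 130.0, 115 and 151 FPKM in HFD, at 84.1, 69.0 and 24.6 FPKM in GT and at 54.4, 6.61 and 44.0 FPKM in TJ. HFD lay above every other library, ND lay below every other library, and GT and TJ overlapped. Apart from ND replicate 1 the libraries ranged 43.6-fold, against 5.38-fold or less for each of the other 9 members. Atf3 rose with HFD, by 5.30 ± 0.53 on the log2(FPKM + 1) scale (limma, adjusted p = 0.0196), and by 4.73 ± 0.17 without ND replicate 1 (limma, adjusted p = 6.8e-04). With the replicate number as a block the difference kept its size but not its call (limma, adjusted p = 0.0675), and the call was also lost when any of the other 5 libraries was left out (limma, adjusted p = 0.0590 without ND replicate 2, 0.0890 without ND replicate 3, and 0.193, 0.171 and 0.231 without HFD replicates 1, 2 and 3). TJ against HFD gave −2.31 ± 0.70 (limma, adjusted p = 0.0557), a value that rested on TJ replicate 2. Without that library it was −1.41 (limma, adjusted p = 0.00577) and passed the threshold, as did the full comparison with a minimum of 5 FPKM (limma, adjusted p = 0.0456). GT against HFD gave −1.31 ± 0.42 (limma, adjusted p = 0.106), and without GT replicate 3 it gave −0.78 (limma, adjusted p = 0.0864).

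Macrophage markers moved with Atf3 library by library. The order of the 12 libraries by Atf3 was the order by the summed FPKM of the 12 macrophage markers (Spearman's rho = 1.00, n = 12, also 1.00 over the 9 libraries on the high-fat diet), a description over libraries that share their scaling. Per 1000 FPKM of these markers, Atf3 was 2.69, 6.06 and 5.75 FPKM in ND and 24.7, 29.8 and 27.4 FPKM in HFD. The ratio was 23.5, 22.5 and 15.6 in GT and 19.6, 5.93 and 18.5 in TJ. The ratio was thus highest in HFD, and that of TJ replicate 2, whose macrophage sum of 1115 FPKM was the lowest on the high-fat diet, lay among the ND values. Most other members also moved with these markers among the libraries on the high-fat diet. Over the 9 high-fat libraries Spearman's rho with the macrophage sum was 0.83 for Hspa5, 0.87 for Hsp90b1, 0.85 for Atf6, 0.88 for Ern1 and 0.75 for Eif2ak3, and it was −0.72 for Trib3 and −0.73 for Xbp1. Without the 2 libraries farthest from the median macrophage sum it was 0.79 to 0.86 for the first 5, −0.75 for Trib3 and −0.43 for Xbp1. Atf4 and Ddit3 gave −0.20 and 0.07 over the 9. Over the 11 libraries without ND replicate 1, Hspa5, Hsp90b1, Atf6, Ern1 and Eif2ak3 gave 0.84, 0.65, 0.76, 0.46 and 0.78. Trib3 and Xbp1 then gave −0.81 and −0.74, and Atf4 and Ddit3 0.30 and 0.48. With all 12 the first 5 gave 0.79, 0.73, 0.82, 0.59 and 0.83, Trib3 −0.39, Xbp1 −0.34, Atf4 0.46 and Ddit3 0.14. The part of the macrophage markers in the differences of Atf3 and of these members was not tested.

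**Figure D2:**
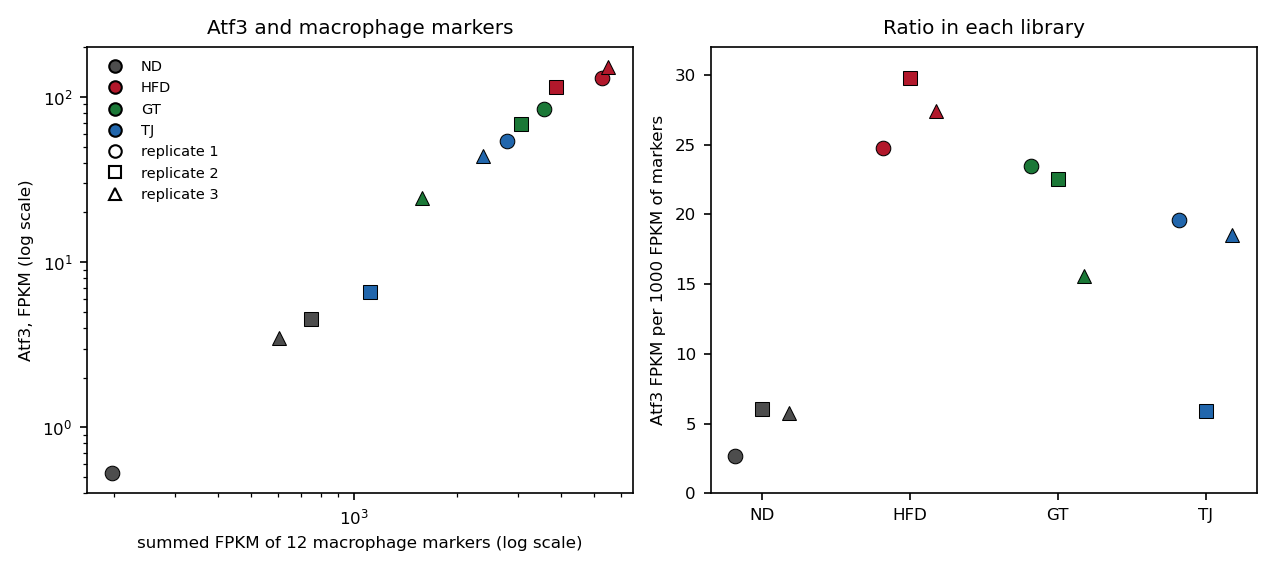
Left, Atf3 against the summed FPKM of 12 macrophage markers in each of 12 libraries, both on log scales. Right, the Atf3 FPKM per 1000 FPKM of those markers by group, which was 24.7 to 29.8 in HFD and 2.69 to 6.06 in ND.

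The counts of members can be read against all genes. In HFD against ND 1 of 10 members was called, beside 1.77% of the 14430 genes tested (1.73% called higher), and 6 members had groups that did not overlap, beside 26.4% of the genes. Without ND replicate 1 there were 4 of 10, with Hspa5, Atf3 and Ddit3 higher and Trib3 lower, beside 15.4% of the genes (11.0% higher and 4.34% lower). In TJ against HFD 4 of 10 members were called, with Hspa5, Hsp90b1 and Atf6 lower and Trib3 higher, beside 18.5% of the genes (11.1% lower and 7.41% higher), and the groups did not overlap for 7 members and for 51.5% of the genes. The median log2 fold change of TJ against HFD was −0.71 over the members and −0.14 over all genes, and the latter was −0.01 after median-of-ratios scaling, which turned the 949 higher and 1417 lower genes into 1285 and 1084. All 4 of these member calls were lost with no filter or with all 12 libraries in the fit. Without HFD replicate 1, 2 or 3 or TJ replicate 1, limma called 0 genes of all those tested (3732 to 4735 at an unadjusted p under 0.05), and without TJ replicate 3 it called 7 members, adding Atf3, Ern1 and Eif2ak3.

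The GT comparison held none of the members past both thresholds, beside 3.63% of the genes by limma, with 6 members at an unadjusted p under 0.05. Groups did not overlap for 6 members and for 36.7% of the genes, and the median was −0.28 over the members and −0.12 over all genes. For all genes the 233 higher and 231 lower calls became 400 and 145 with median-of-ratios scaling. These comparisons share the 3 HFD libraries, so their values are given side by side and are not independent of each other. Over the 4 groups together the limma F test called Atf3 alone (adjusted p = 0.0232), beside 3.77% of the genes. With the replicate number as a block the F test called 0 members and 1 gene. Without ND replicate 1 it called Hspa5, Hsp90b1, Atf3, Atf6, Ddit3 and Trib3, beside 31.5% of the genes.

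**Figure D3:**
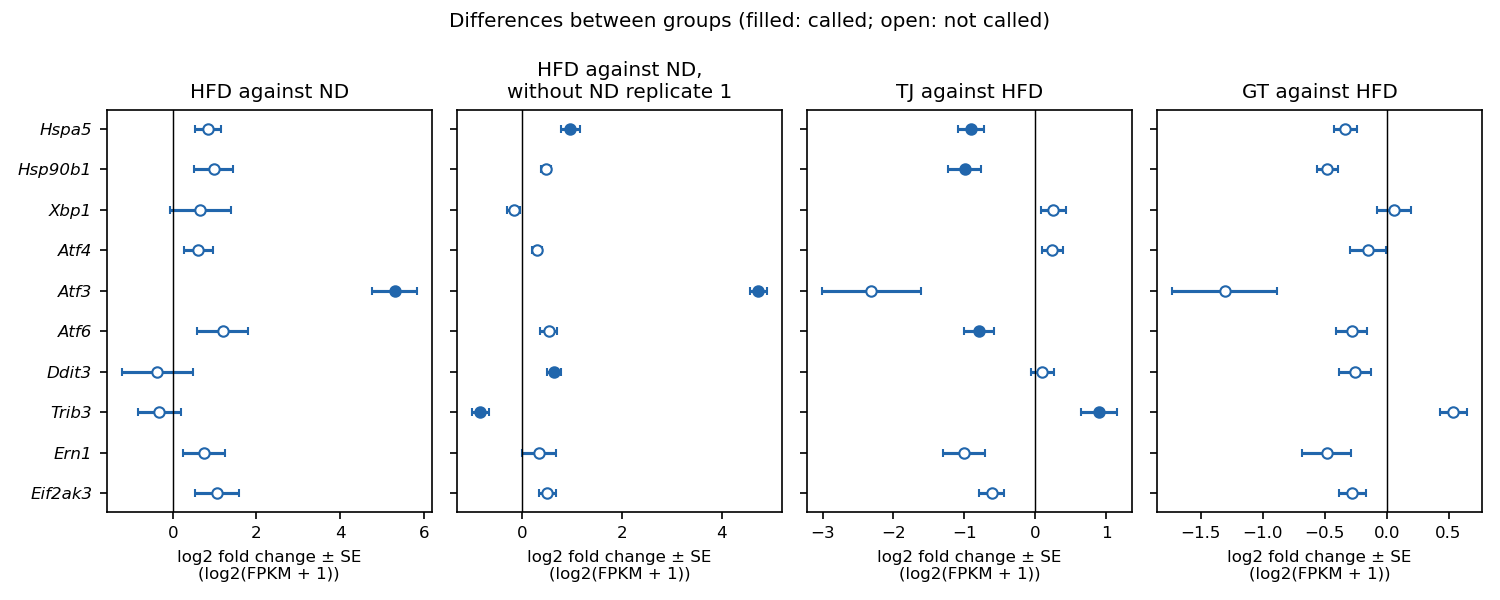
Log2 fold change with its standard error (limma on log2(FPKM + 1)) of each member for HFD against ND with and without ND replicate 1, TJ against HFD and GT against HFD, with filled points for members called and a scale of its own in each panel. Atf3 reaches 5.30 for HFD against ND, and Trib3 lies opposite to Hspa5 and Hsp90b1 in the panels for TJ and GT.

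The series sets TJ beside green tea extract, which were given at different doses, 3% and 0.25% of the diet. None of the members was called between TJ and GT, beside 0.148% of the genes by limma, and Hspa5 and Atf6 had an unadjusted p under 0.05. Hspa5 differed by −0.57 ± 0.19 (limma, adjusted p = 0.145) and Atf6 by −0.51 ± 0.19 (limma, adjusted p = 0.172). The groups did not overlap for 6 members and for 34.4% of the genes, with Hspa5, Hsp90b1, Atf6, Ern1 and Eif2ak3 lower and Ddit3 higher in the TJ libraries. For Hsp90b1 the difference was −0.52 ± 0.23, and for Trib3, where the groups overlapped, it was 0.36 ± 0.25. The median was −0.43 over the members and −0.03 over all genes. A single member compared by an exact two-sided permutation test of 3 libraries against 3 cannot go below p = 0.1.

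Genes around the members were grouped by role. Each call with TJ named below was lost with all 12 libraries in the fit and, as for the members, without HFD replicate 1, 2 or 3 or TJ replicate 1. With no filter the calls with TJ numbered 1 among the chaperones, 1 among the ATF4 targets, 2 among the heat shock genes and 0 in the other lists. Removing the length trend left 2 chaperones, 2 higher and 2 lower heat shock genes and 1 immediate early gene called with TJ. The counts of the other lists with calls did not change. Each call with GT was lost with no filter, all 12 libraries or eBayes without the trend, and without any single HFD library, GT replicate 2 or GT replicate 3. Among 16 further sensors and transducers, Wfs1 and Mbtps2 fell with TJ, 2 of 16 beside 11.1% of all genes, and none rose. Without TJ replicate 3 there were 4 that fell, beside 2167 of 12873 genes. Wfs1, an ER membrane protein that limits ATF6 signalling, went from 60.0 ± 12.5 FPKM in HFD to 19.7 ± 10.0 FPKM in TJ, by −1.69 ± 0.40 (limma, adjusted p = 0.0361), and it was 6.26 ± 2.09 FPKM in ND, a rise with HFD of 3.09 ± 0.35 (limma, adjusted p = 0.0241). The call with HFD was lost with the replicate block and without ND replicate 2 or 3 or any HFD library, and without ND replicate 1 the rise was 2.85 ± 0.22 (limma, adjusted p = 0.00183). Mbtps2, the protease that makes the second cut in ATF6, fell from 11.5 ± 1.57 to 5.13 ± 1.86 FPKM with TJ, by −1.06 ± 0.24 (limma, adjusted p = 0.0311), and with GT by −0.65 ± 0.13 (limma, adjusted p = 0.0482), a call lost with median-of-ratios scaling or the length trend removed. Atf6b, a relative of Atf6, rose with GT by 0.60 ± 0.10 (limma, adjusted p = 0.0379), a call also lost without GT replicate 1 and so with any single library left out. The highest value of the list with TJ was 0.73 ± 0.37 for Ppp1r15a, a subunit of the phosphatase that reverses PERK, which was not called.

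Of the 20 ER chaperones and folding enzymes, 3 fell with TJ, beside 11.1% of all genes called lower, and none rose. Without TJ replicate 3 there were 7 that fell and 1 that rose, beside 2167 and 1245 of 12873 genes. With all 6 libraries only 3 of the 20 lay above 0, beside 40.8% of all genes, and the median was −0.47 beside −0.14 for all genes. With median-of-ratios scaling the medians were −0.33 and −0.01, and with the length trend removed −0.33 and −0.03. Without TJ replicate 2 they were −0.35 and −0.10. Sdf2l1, a partner of BiP, fell from 28.8 ± 2.19 to 13.4 ± 2.27 FPKM, by −1.06 ± 0.16 (limma, adjusted p = 0.0205), and with GT it fell by −0.79 ± 0.16 (limma, adjusted p = 0.0489). Ero1lb, an oxidase of disulphide formation, had the lowest value with TJ, −1.18 ± 0.24 (limma, adjusted p = 0.0276), and Uggt1, which checks glycoprotein folding, fell by −0.75 ± 0.15 (limma, adjusted p = 0.0272). Fkbp2, a prolyl isomerase, had the highest at 0.72 ± 0.22 and was not called. Of the genes with an ERSE shown above, Hspa5 and Hsp90b1 fell with TJ and the other 7 were not called, at −0.57 ± 0.25 for Canx, −0.50 ± 0.21 for Dnajc3, −0.48 ± 0.17 for Calr, −0.28 ± 0.18 for Creld2, 0.02 ± 0.13 for Pdia6, 0.16 ± 0.12 for Syvn1 and 0.37 ± 0.35 for Derl3. In HFD against ND none of the 20 was called by limma (1 at an unadjusted p under 0.05), and without ND replicate 1 there were 5 that rose, beside 11.0% of all genes, namely Sdf2l1, Dnajb11, Canx, Calr and Pdia3, of which Sdf2l1 was highest at 2.17 ± 0.39. In ND replicate 1 Sdf2l1 stood at 157 FPKM and Calr at 568 FPKM, against 3.19 and 9.44 FPKM and 134 and 158 FPKM in the other ND libraries.

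**Figure D4:**
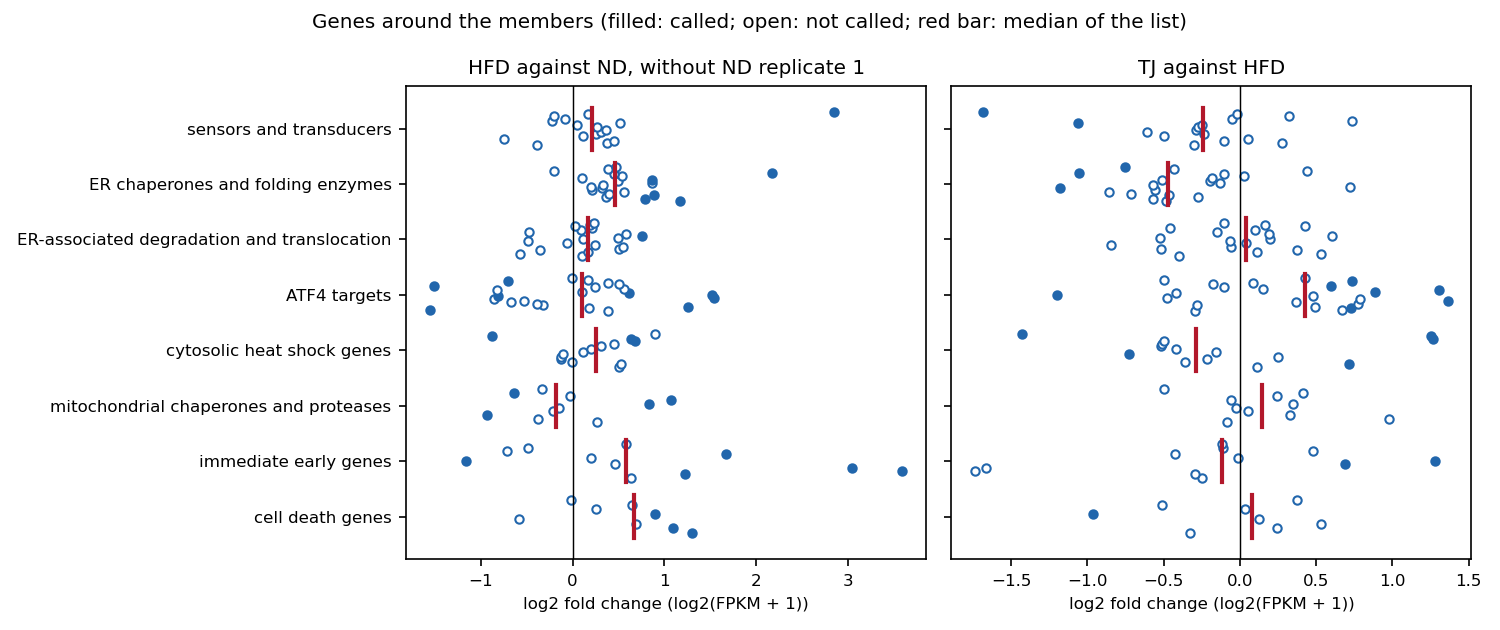
Log2 fold change on log2(FPKM + 1) of each tested gene of 8 lists, for HFD against ND without ND replicate 1 (left) and TJ against HFD (right), with filled points for genes called and a red bar for the median of each list. The ER chaperones have a median of 0.46 on the left and −0.47 on the right.

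The 19 genes of ER-associated degradation and translocation held no call with TJ by limma (6 at an unadjusted p under 0.05), beside 18.5% of all genes, with Sec61b of the translocon highest at 0.60 ± 0.19 and Edem3, which trims mannose from misfolded glycoproteins, lowest at −0.84 ± 0.33. Their median was 0.04. With median-of-ratios scaling 1 of them rose, beside 1285 of 12776 genes, and with the length trend removed 1 rose, beside 1089 of 12725. Without TJ replicate 3 there were 2 that rose and 1 that fell, beside 1245 and 2167 of 12873 genes. Sec61b passed the threshold with HFD once ND replicate 1 was left out, at 0.75 ± 0.13 (limma, adjusted p = 0.0202), 1 of 19 beside 11.0% of all genes called higher.

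The ATF4 targets held calls in both directions with TJ. Of 23 tested of 25 in the table, 6 rose, beside 7.41% of all genes, 1 fell, beside 11.1%, and 16 were not called. Their median was 0.43, beside −0.14 for all genes, and it was 0.25 with the length trend removed and 0.28 without TJ replicate 2. Those that rose included Phgdh, the first enzyme of serine synthesis, from 112 ± 13.8 to 277 ± 32.3 FPKM, by 1.30 ± 0.16 (limma, adjusted p = 0.0196), and Eif4ebp1, an inhibitor of translation, by 1.36 ± 0.31 (limma, adjusted p = 0.0316). The other 4 were the stress protein Nupr1 at 0.88 ± 0.23, Stc2 at 0.74 ± 0.14, Atf5 at 0.73 ± 0.18 and Sesn2 at 0.60 ± 0.15. Mthfd2, an enzyme of mitochondrial one-carbon metabolism, fell by −1.20 ± 0.30 (limma, adjusted p = 0.0393). With GT, Phgdh rose by 0.79 ± 0.14, the hormone gene Fgf21 by 0.96 ± 0.20 and the aminotransferase gene Gpt2 by 0.60 ± 0.13. Fgf21 averaged 0.80 FPKM in HFD, so it passed the filter of 1 FPKM only through its level in GT. With a minimum of 5 FPKM this list held 2 calls with GT. Asns, which makes asparagine, was 59.6, 46.1 and 52.4 FPKM in ND and 18.6, 15.4 and 14.5 FPKM in HFD, a fall of −1.65 ± 0.26 (limma, adjusted p = 0.0475) that was lost with median-of-ratios scaling, a pseudocount of 0.1, eBayes without the trend, the replicate block, or any single library other than ND replicate 1 left out, and was −1.55 ± 0.15 (limma, adjusted p = 0.00386) without ND replicate 1. In that smaller comparison 4 targets rose with HFD (Mthfd2, Gdf15, Cebpb and Nars), beside 11.0% of all genes, and 4 fell (Asns, Sesn2, Gpt2 and Stc2), beside 4.34%. Gdf15 averaged 0.74 FPKM in ND replicates 2 and 3 and 4.13 FPKM in HFD, so it passed the filter of 1 FPKM only through HFD.

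Other stress genes showed mixed directions. The calls in these 4 lists can be read beside the 7.41% of all genes called higher and 11.1% called lower with TJ. Of 14 cytosolic heat shock genes, the small heat shock genes Hspb1, Hspb8 and Cryab rose with TJ, by 1.26 ± 0.30, 1.25 ± 0.21 and 0.71 ± 0.12, whereas Hsph1 and Hsp90aa1 fell, by −1.43 ± 0.26 and −0.73 ± 0.15. Hspb8 also rose with GT, by 0.97 ± 0.15. None of the 10 mitochondrial chaperones and proteases was called with TJ by limma (3 at an unadjusted p under 0.05), with Clpp highest at 0.98 ± 0.31 and Yme1l1 lowest at −0.50 ± 0.16, and Hspe1 fell with GT by −0.59 ± 0.12, a call lost with median-of-ratios scaling or the length trend removed. The immediate early genes Ier3 and Ier2 rose with TJ, by 1.28 ± 0.29 and 0.69 ± 0.18, and Egr2 had the lowest value of that list at −1.74 ± 0.57, which was not called. In HFD against ND with all 6 libraries limma called none of these 4 lists' genes, with 1 heat shock, 2 mitochondrial, 5 immediate early and 1 cell death gene at an unadjusted p under 0.05. Without ND replicate 1, where 11.0% of all genes were called higher and 4.34% lower, Fos, Egr2, Egr1 and Junb rose with HFD, by 3.04 ± 0.16, 3.59 ± 0.19, 1.22 ± 0.19 and 1.67 ± 0.30, and Ier3 fell by −1.16 ± 0.21. Egr2 averaged 0.82 FPKM in ND replicates 2 and 3 and 21.1 FPKM in HFD, so it passed the filter of 1 FPKM only through HFD. The same comparison held rises of the heat shock genes Hspa8 (0.68 ± 0.11) and Hspb1 (0.64 ± 0.15) and a fall of Hspb8 (−0.88 ± 0.12). Of the mitochondrial list, Htra2 and Hspe1 rose, by 1.08 ± 0.16 and 0.83 ± 0.20, and Clpx and Trap1 fell, by −0.93 ± 0.16 and −0.63 ± 0.11. Of 8 cell death genes, Bcl2l11 (BIM) fell with TJ by −0.97 ± 0.25 (limma, adjusted p = 0.0416) and rose with HFD without ND replicate 1 by 0.90 ± 0.19 (limma, adjusted p = 0.0347), whereas with that library the difference was −0.58 ± 1.23 (limma, adjusted p = 0.806), and Bak1 and Bax rose with HFD in that comparison, by 1.30 ± 0.13 and 1.10 ± 0.23.

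Over the 11 libraries other than ND replicate 1, the members fell into a set that moved together and a few that did not. Pearson's r of log2(FPKM + 1) lay between 0.70 and 0.96 for all pairs among Hspa5, Hsp90b1, Atf6, Ern1 and Eif2ak3. Trib3 ran against all 5, from −0.82 with Ern1 to −0.96 with Eif2ak3, and so did Xbp1, from −0.56 with Hspa5 to −0.77 with Atf6. Atf3 went with the 5, from 0.41 with Ern1 to 0.79 with Hspa5, and Atf4 went with Ddit3 at 0.77. These are descriptions over 11 libraries of 4 groups that share their diets and their scaling. The adipocyte marker sum ran against the 5 over the same libraries, with r of −0.84 for Hspa5, −0.94 for Hsp90b1, −0.93 for Atf6, −0.92 for Ern1 and −0.91 for Eif2ak3, and with Trib3 at 0.90. It was highest in TJ replicate 2, at 62800 FPKM, which also held the lowest Hsp90b1, Atf6, Ern1 and Eif2ak3 and the highest Trib3 and Xbp1 of the 11. With ND replicate 1 added these values changed. The adipocyte sum then gave −0.38 with Hspa5 and 0.29, 0.51, 0.08 and 0.54 with Hsp90b1, Atf6, Ern1 and Eif2ak3. Trib3 gave r from −0.64 with Hspa5 to 0.23 with Eif2ak3, pairs among the 5 lay between 0.47 and 0.99, and Atf4 gave −0.58 with Ddit3. Xbp1 gave r from −0.09 with Hspa5 to 0.78 with Eif2ak3, and Atf3 from 0.60 with Ern1 to 0.80 with Atf6. The part of the adipocyte sum in the differences between groups was not tested.

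**Figure D5:**
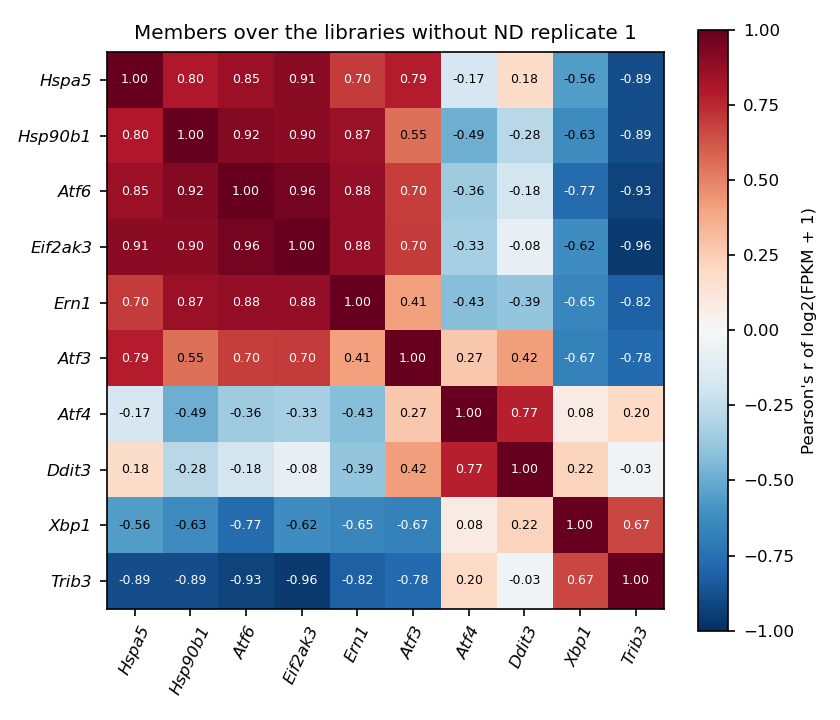
Pearson's r between each pair of the 10 members over 11 libraries, without ND replicate 1, computed on log2(FPKM + 1) and printed in each cell. Hspa5, Hsp90b1, Atf6, Eif2ak3 and Ern1 form a block of 0.70 to 0.96, and Trib3 and Xbp1 are negative with each of them.

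The genes most like each member over all 12 libraries were found by Pearson's r of log2(FPKM + 1). For Atf3 they were the leukocyte genes Cd300a, Cd200r1 and Arhgap25, all with r of 1.00 to 2 decimals. For Xbp1 the closest was Pparg, the regulator of fat cell differentiation, at 0.99, followed by Fbxw2 and Eci2 at 0.98. Atf6 and Eif2ak3 shared Rbbp5, at 1.00 and 0.99, and Atf6 was itself the third closest gene to Eif2ak3 at 0.99. The others of these 2 members were Slc36a4 and Ankfy1 for Atf6 and Ripk1 for Eif2ak3. Hsp90b1 was closest to Cenpc1, Siae and Mef2a at 0.98 to 0.99, and Hspa5 to Pafah2, Limk1 and Mcm2 at 0.93 to 0.96. Atf4 was closest to Ing4, Pdcd6 and Mrps33 at 0.97 to 0.98, Ddit3 to Timmdc1, Anapc11 and Jpt1 at 0.98 to 0.99, Trib3 to Trit1, Rbp4 and Ormdl3 at 0.97 to 0.98 and Ern1 to Rcor1, Acox3 and Zbtb34 at 0.97. ND replicate 1 weighs heavily in these values. Without it Pparg stayed among the 3 genes closest to Xbp1 at 0.92 and Cd200r1 among those of Atf3 at 1.00, whereas for Hspa5, Atf4, Ddit3, Trib3, Ern1 and Eif2ak3 all 3 were other genes.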

How the data were processed

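RNA-seq libraries were prepared from eWAT mRNA with the TruSeq RNA kit. The authors filtered the reads, mapped them with STAR to Ensembl release 72 and computed FPKM with Cufflinks, masking noncoding regions and using multiread and fragment bias correction. The submitters' processing notes name CASAVA 1.8.2, STAR 2.4.0 and Cufflinks 2.1.1. The methods name another STAR version and the human genome, whereas all 23474 identifiers in the deposited table are mouse identifiers. Depth was estimated from the smallest FPKM steps of long single-transcript genes and is approximate, so no counting intervals were derived. Unused columns of per-sample values numbered 0, and no libraries held identical values.

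Symbols (for 22671 identifiers), coordinates (GRCm38) and lengths came from GENCODE M21. Groups were compared in R 4.3.3 with limma 3.58.1 (lmFit, then eBayes with the trend option). Its input was log2(FPKM + 1), a scale that understates the change of low genes, for the 6 libraries compared and the genes whose mean reached 1 FPKM, without covariates and with Benjamini-Hochberg adjustment over all genes. The F test used all 12 libraries. Tables were handled with pandas 2.3.3, numpy 2.4.6 and scipy 1.17.1. The comparison was tested on simulated data.

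The text names all 10 members, genes of the lists that were called or had the highest or lowest fold change, and the 3 genes most like each member. The members and lists were chosen with earlier results of these data known. Genes that overlap a member, and the partners with an ERSE that were not called, were chosen once their values had been seen. The alternatives were a pseudocount of 0.1, no filter, a minimum of 5 FPKM, median-of-ratios scaling, a replicate block, a fit of all 12 libraries, eBayes without the trend and each library left out. The removal of the length trend was added after the data had been seen.

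Pairing by replicate number was checked by correlating, over genes, how same-numbered libraries departed from their group means. HFD and ND gave 0.55, 0.34 and 0.12, all above 0.1, so these numbers were taken to pair the libraries, although no label names anything that a number shares and HFD replicate 3 correlated with ND replicate 2 at 0.63. The values given come from the fit without the block, and for HFD against ND with all 6 libraries the text says where the block ends a call. The block was not fitted without ND replicate 1.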

Additional observations from a re-analysis of the deposited data

How the results depend on the processing

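For HFD against ND, 1 member and 255 genes were called. The pseudocount of 0.1 gave 126 genes, all 12 libraries in the fit 1131, and leaving out single libraries 0 to 4 members and 0 to 2098 genes, with both highest counts without ND replicate 1 and 0 members without any other library. For TJ against HFD, 4 members and 2366 genes were called. No filter gave 0 and 382, all 12 libraries 0 and 1, eBayes without the trend 2 members, a minimum of 5 FPKM 6 members (adding Atf3 and Eif2ak3), and leaving out single libraries 0 to 7 members and 0 to 3412 genes. The calls of Hspa5, Hsp90b1, Atf6 and Trib3 were lost without HFD replicate 1, 2 or 3 or TJ replicate 1 and kept without TJ replicate 2 or 3. For GT against HFD, 0 members and 464 genes were called. Trib3 alone was called with a pseudocount of 0.1, median-of-ratios scaling or the length trend removed (1 member each), and the genes numbered 5 with no filter, 1 with all 12 libraries, 67 without the trend and 4 to 1107 with single libraries left out, the most without GT replicate 1. For TJ against GT, the 18 genes became 11 with a pseudocount of 0.1, 6 with no filter or a minimum of 5 FPKM, 4 with all 12 libraries and 4 to 81 with single libraries left out. The F test, with 1 member and 526 genes, gave 0 to 6 members and 0 to 4134 genes with single libraries left out. The cause of these changes was not tested. Leaving out a library also makes its group smaller, and the part of that was not tested either.

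With the replicate block, HFD against ND gave 0 members and 0 genes by limma (2239 genes at an unadjusted p under 0.05), TJ against HFD 2 members (Hspa5 and Atf3) and 1198 genes, GT against HFD 5 genes and no call in the lists, and the F test 0 members and 1 gene. With TJ the block left 2 higher and 0 lower ATF4 targets, 1 and 1 heat shock genes, 1 and 0 immediate early genes and 0 cell death genes. For the other pairs of groups the numbers were not taken to pair the libraries, since the same-number correlations were −0.03, −0.05 and 0.23 for TJ against HFD, 0.20, 0.05 and −0.07 for GT against HFD and 0.37, −0.21 and −0.08 for TJ against GT.

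Some members that were not called with all libraries turned direction, and Ddit3 and Trib3 were called for HFD against ND without ND replicate 1. With the length trend removed, Ddit3 was 0.25 for HFD against ND, −0.33 for TJ against HFD and −0.16 for TJ against GT. With single libraries left out, HFD against ND ranged from −0.17 (without ND replicate 1) to 1.10 for Xbp1, from −0.88 to 0.64 (without ND replicate 1) for Ddit3 and from −0.84 to 0.0091 (without ND replicate 2) for Trib3. TJ against HFD ranged from −0.0309 (without TJ replicate 2) to 0.17 for Ddit3, and GT against HFD from −0.0571 (without GT replicate 3) to 0.13 for Xbp1. List medians near 0 turned too. With median-of-ratios scaling those of ER-associated degradation and ATF4 targets became −0.01 and −0.06 for HFD against ND, that of immediate early genes 0.0029 for TJ against HFD, and those of sensors, ER-associated degradation and cell death genes 0.05, 0.05 and 0.0050 for GT against HFD. For TJ against HFD the median of ER-associated degradation was −0.01 with a minimum of 5 FPKM and −0.06 without TJ replicate 3, and for HFD against ND that of the mitochondrial list was −0.18 without ND replicate 1.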
